A study of Mus musculus with 16 samples.

Results

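The genes described here are 10 mouse genes of iron storage and transport: Fth1, Ftl1, Tfrc, Trf, Slc11a2, Slc11a1, Slc40a1, Cp, Hmox1 and Gpx4. They were chosen by name, with earlier results of these data known. Each was read from the row that carries its gene name in 2 gene count tables. Microglia were counted over 55414 genes and astrocytes over 56980, and all 10 genes are present once in each table and passed the filter on low counts in each. The study asked what the scaffold protein Rack1 does in microglia in a mouse model of Alzheimer's disease (AD), by deleting Rack1 conditionally in microglia. RNA of microglia and of astrocytes was sequenced in 16 libraries, 2 for each of 4 groups of each cell type. The group WT has genotype WT, CKO has the conditional Rack1 knockout, AD WT has the AD model with intact Rack1, and AD CKO has both the AD model and the knockout. The AD model, the Cre driver, the age, the way the cells were isolated and the number of animals behind a library are not given in the sources used here, and nothing states that both libraries of a group are separate animals. The p-values therefore measure only the spread between these libraries, which may be technical.

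As background, iron enters most cells bound to transferrin (Trf) through the transferrin receptor (Tfrc), leaves the endosome through the divalent metal transporter Slc11a2, is stored inside the ferritin shell built from heavy (Fth1) and light (Ftl1) chains, and leaves the cell through ferroportin (Slc40a1), helped by the ferroxidase ceruloplasmin (Cp). Phagocytes also move iron out of the phagosome with Slc11a1, free it from haem with haem oxygenase Hmox1, and limit iron-driven lipid peroxidation with the peroxidase Gpx4. In brain, ferritin is abundant in microglia and oligodendrocytes, and oligodendrocytes are the main makers of transferrin. When iron is scarce, iron regulatory proteins bind a hairpin, the iron-responsive element, in some of these transcripts: in a 5′ untranslated region (UTR) they block translation, and in the 3′ UTR of Tfrc they protect the transcript from decay.

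The hairpins are shown because their place differs between these genes: in Fth1, Ftl1 and Slc40a1 they lie where they act on translation, and in Tfrc where they act on transcript decay. An isoform of Slc11a2 is also known for such an element in its 3′ UTR, which the strict pairing used here did not find. Each sequence is the sense strand 5′ to 3′ in DNA letters, from GENCODE M21 transcripts on mm10, with the loop CAGTGN in capitals.
Fth1 (5′ UTR, chr19:9982732-9982760, plus strand): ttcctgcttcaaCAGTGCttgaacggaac
Ftl1 (5′ UTR, chr7:45459779-45459807, minus strand): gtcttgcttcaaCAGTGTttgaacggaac
Slc40a1 (5′ UTR, chr1:45925465-45925493, minus strand): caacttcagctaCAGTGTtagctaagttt
Tfrc site 1 (3′ UTR, chr16:32631219-32631247, plus strand): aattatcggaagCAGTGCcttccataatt
Tfrc site 2 (3′ UTR, chr16:32631598-32631626, plus strand): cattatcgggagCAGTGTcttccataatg
Tfrc site 3 (3′ UTR, chr16:32631663-32631691, plus strand): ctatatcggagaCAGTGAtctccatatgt
Tfrc site 4 (3′ UTR, chr16:32631710-32631738, plus strand): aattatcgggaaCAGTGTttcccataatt
The search looked on the sense strand for a C, any 5 bases and CAGTGN, with 5 paired bases around the loop (G-T pairs allowed). Such a paired site lay in 1.21% of 21951 principal transcripts of protein-coding genes, and within a UTR in 0.606%, while the unpaired letters alone were found in 64.6%. The principal Tfrc transcript held the unpaired letters at 5 places, 4 of them with the pairs. The other 6 genes held no paired site in any annotated transcript with a coding sequence. This says only that these letters with these pairs are not there. The antioxidant response element core TGACNNNGC was also searched, on both strands, in RefSeq promoters (GRCm38.p6) of Fth1, Ftl1, Tfrc, Slc11a1, Cp and Gpx4. It occurred in 0 of their 12 windows of 300 bases and in 12.4% of 32851 promoter windows. The windows lie at the start sites, so elements farther upstream were not searched, and some windows of the same gene overlap. No window was available for Trf, Slc11a2, Slc40a1 and Hmox1.

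Depth was even, with 27741882 to 33933068 counts in a microglia library and 29615853 to 35851170 in an astrocyte library. Levels are counts scaled to the library total (CPM), with totals corrected for composition by edgeR's TMM factors. Fold changes are log2 with their standard error (SE), from edgeR's quasi-likelihood test fitted across all genes of a cell type, with Benjamini-Hochberg adjusted p over 17318 microglia or 20116 astrocyte genes. Rack1 was at 95.2 to 115 CPM in the microglia libraries labelled with intact Rack1 and at 40.4 to 47.8 in those labelled knockout. In astrocyte libraries, whose own Rack1 the design leaves intact, it was at 59.5 ± 2.25 CPM (SD, n = 2) in WT, 99.1 ± 4.73 in CKO, 74.8 ± 2.59 in AD WT and 54.0 ± 1.03 in AD CKO. In microglia libraries 10 of 10 microglial markers (Cx3cr1, P2ry12 and others) were present and summed to 24300 to 47120 CPM, and 10 of 10 oligodendrocyte markers (Mbp, Mog and others) to 2268 to 8631 CPM. In astrocyte libraries 10 of 10 astrocyte markers (Aqp4, Gja1 and others) summed to 7253 to 17130 CPM, but the oligodendrocyte markers summed to 6961 to 19230 CPM, and 8 of 8 ependymal and choroid markers (Ttr, Foxj1 and others) to 7416 to 13690 CPM. Both ranges overlap that of the astrocyte markers, and the libraries are called astrocyte libraries after their label. In such bulk libraries fewer cells of a type and less RNA per cell cannot be told apart.

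In microglia without the AD model, the Rack1 knockout libraries had more transcript of both ferritin chains, of the importer Slc11a2 and of ceruloplasmin, and less of transferrin, of the phagosomal transporter Slc11a1 and, slightly, of ferroportin. Of the 10 genes, 4 rose and 3 fell at adjusted p under 0.05. Of all tested genes 17.7% rose and 15.9% fell, 33.6% in either direction, and of those with a mean of at least 5 CPM 44.7% changed. The median log2 fold change of the 10 genes was -0.004, beside 0.04 over all genes. With the AD model the knockout went with 5 rises and 3 falls, beside 17% and 15% of all tested genes (32% in either direction, 43% of those at 5 CPM or more). The median there was 0.13, beside -0.002 over all genes.

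**Figure D1:**
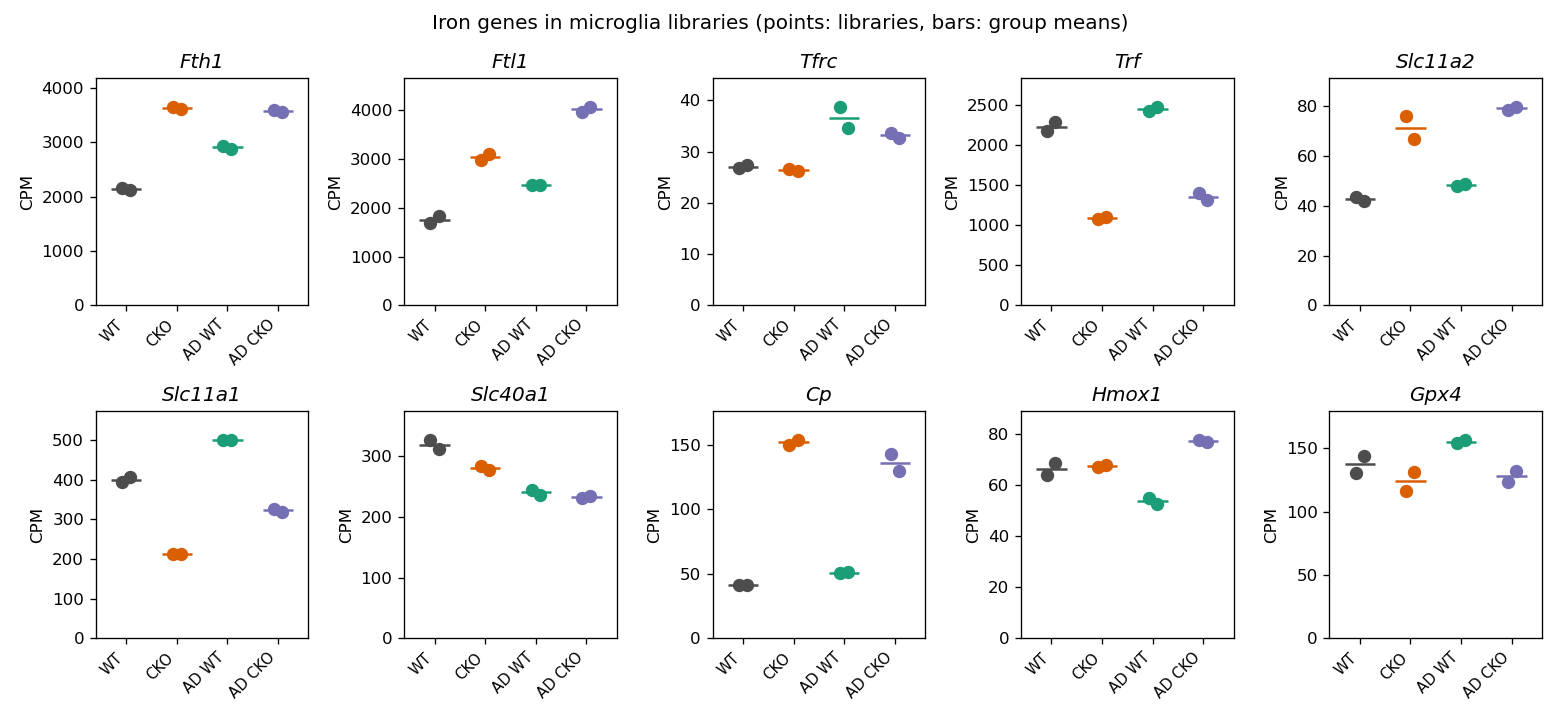
Level of each of the 10 iron genes in the 8 microglia libraries, in CPM on a linear axis from 0, with a point for each library and a bar for the mean of the 2 libraries of a group. Fth1, Ftl1, Slc11a2 and Cp stand higher in both knockout groups than in the matching intact groups, and Trf and Slc11a1 stand lower.

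Ferritin heavy chain (Fth1), the chain that oxidises iron as it enters the shell, stood at 2167 and 2129 CPM in WT microglia, 3654 and 3606 in CKO, 2936 and 2876 in AD WT and 3589 and 3564 in AD CKO. WT was lowest, AD WT lay in the middle, and the knockout groups were highest and close to each other. The knockout raised Fth1 1.69-fold without the AD model (log2 0.76 ± 0.03, edgeR adjusted p = 3.25e-17) and 1.23-fold with it (0.30 ± 0.03, adjusted p = 1.37e-08). Ferritin light chain (Ftl1), which helps the iron core form, was at 1680 and 1828 CPM in WT, 2978 and 3108 in CKO, 2475 and 2464 in AD WT and 3977 and 4074 in AD CKO. Its 4 groups did not overlap, and AD CKO was the highest. Ftl1 rose 1.74-fold with the knockout alone (0.79 ± 0.04, edgeR adjusted p = 1.48e-15) and 1.63-fold in the AD model (0.70 ± 0.04, adjusted p = 3.14e-14). The 10 oligodendrocyte markers summed to 3152 to 3294 CPM in WT and 8238 to 8631 in CKO. In the AD model they went the other way, from 3759 to 3761 in AD WT to 2268 to 2319 in AD CKO. Microglial markers were lower, and border macrophage and monocyte markers higher, in both knockout groups. The part of these cell types in the ferritin values was not tested. Per kilobase of principal transcript, Ftl1 and Fth1 had the highest levels of the 10 genes in microglia of every group, from 1812 and 1438 CPM per kilobase in WT to 4159 and 2394 in AD CKO. Reads of the ferritin pseudogenes were 0.682% to 0.89% of those of Ftl1 and under 0.01% of those of Fth1.

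Transferrin receptor (Tfrc), which carries the 4 hairpins printed above in its 3′ UTR, did not pass the test for the knockout in either background. It stood at 26.7 and 27.3 CPM in WT, 26.7 and 26.2 in CKO, 38.7 and 34.5 in AD WT and 33.6 and 32.7 in AD CKO microglia. The groups with the AD model were the higher ones, and each knockout group lay just below its intact group. The knockout difference was -0.03 ± 0.09 on the log2 scale without the AD model (edgeR adjusted p = 0.83) and -0.14 ± 0.09 with it (adjusted p = 0.22). Slc11a2, the endosomal importer, was at 43.6 and 42.1 CPM in WT, 76.1 and 66.8 in CKO, 48.1 and 48.6 in AD WT and 78.6 and 79.9 in AD CKO. Every knockout library lay above every library with intact Rack1. Its rise was 0.74 ± 0.07 without the AD model (edgeR adjusted p = 2.13e-09) and 0.71 ± 0.07 with it (adjusted p = 5.44e-09).

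Transferrin (Trf), the secreted iron carrier, was at 2179 and 2286 CPM in WT, 1080 and 1103 in CKO, 2428 and 2479 in AD WT and 1399 and 1314 in AD CKO microglia. Every knockout library was below every intact one. Trf fell by 1.03 ± 0.04 on the log2 scale without the AD model (edgeR adjusted p = 1.24e-18) and by 0.85 ± 0.04 with it (adjusted p = 1.44e-16). Because transferrin is known as an oligodendrocyte product, the marker sums are given beside it. The 10 oligodendrocyte markers, none at 0, summed to 3152 to 3294 CPM in WT, 8238 to 8631 in CKO, 3759 to 3761 in AD WT and 2268 to 2319 in AD CKO. In CKO libraries this sum was at its highest while Trf was at its lowest. Single markers moved less evenly than the sum: 5 rose and 2 fell from WT to CKO (median log2 fold change 0.38). From WT to AD WT 3 rose and 4 fell (median -0.23), and from AD WT to AD CKO 0 rose and 9 fell (median -1.03). The 10 microglial markers, none at 0, summed to 45670 to 47120 CPM in WT, 24300 to 24530 in CKO, 39550 to 39990 in AD WT and 26280 to 26410 in AD CKO, so they were lower in the same groups as Trf. The parts of oligodendrocyte RNA and of the fall in microglial markers in the Trf values were not tested.

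**Figure D2:**
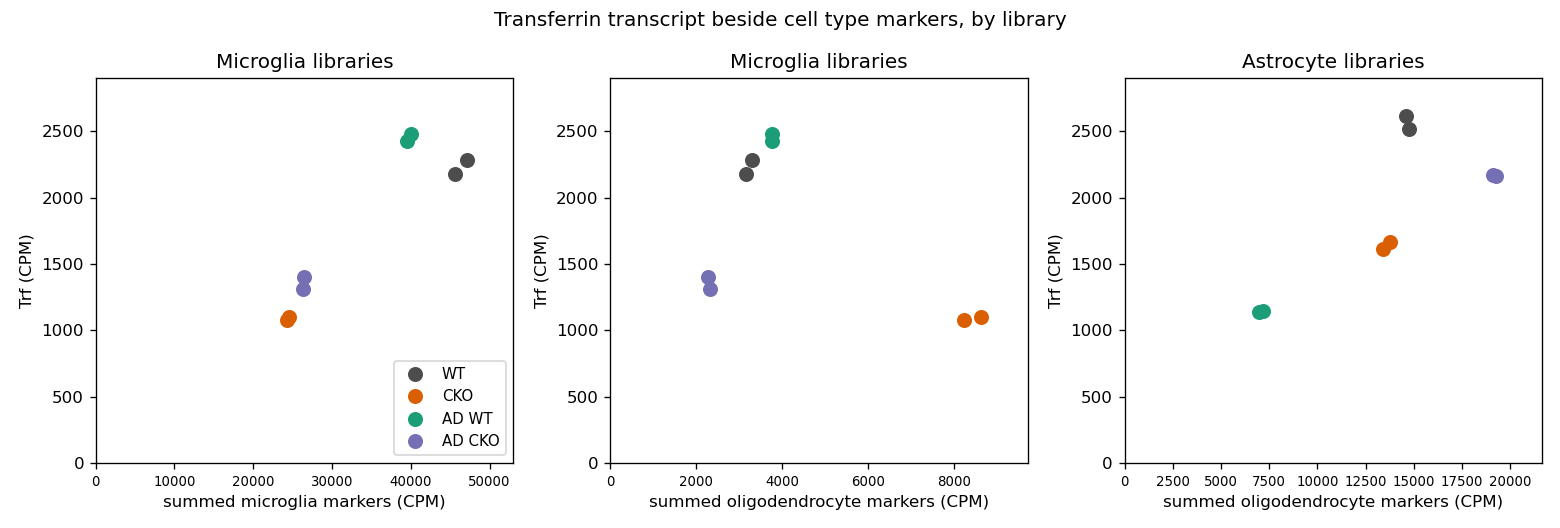
Trf level (CPM) against the summed level (CPM) of 10 microglial markers in microglia libraries (left), of 10 oligodendrocyte markers in microglia libraries (middle) and of 10 oligodendrocyte markers in astrocyte libraries (right), with a point for each library coloured by group and axes from 0. In microglia libraries the CKO points, at 1080 and 1103 CPM of Trf, have the highest oligodendrocyte sum, while in astrocyte libraries the AD WT points are lowest on both axes.

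Slc11a1 (NRAMP1), which pumps iron and manganese out of the phagosome of macrophages, followed the same order of groups. It was at 393 and 408 CPM in WT, 211 and 214 in CKO, 500.2 and 499.9 in AD WT and 326 and 319 in AD CKO. The fall with the knockout was by 0.91 ± 0.04 without the AD model (edgeR adjusted p = 3.34e-16) and by 0.63 ± 0.04 with it (adjusted p = 1.36e-12). Over the 8 microglia libraries the log2 levels of Trf and Slc11a1 had a Pearson correlation of 0.952, given as a description since the libraries share group means.

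Of the export genes, ceruloplasmin (Cp), a copper ferroxidase, changed more than ferroportin. Cp stood at 41.0 and 41.3 CPM in WT, 149.9 and 154 in CKO, 50.7 and 51.1 in AD WT and 143 and 129 in AD CKO microglia. The knockout groups were 3.69-fold (log2 1.88 ± 0.06, edgeR adjusted p = 1.74e-19) and 2.67-fold (1.42 ± 0.06, adjusted p = 1.35e-16) above their intact groups. The 8 border macrophage and monocyte markers (Mrc1, Pf4 and others), none at 0, were also higher in the knockout groups, at 231 to 236 CPM in WT, 414 to 417.5 in CKO, 193 to 194 in AD WT and 303 to 308 in AD CKO, and their part in the rise of Cp was not tested. Ferroportin (Slc40a1), the cell's only known iron exporter, was at 328 and 312 CPM in WT, 284 and 278 in CKO, 245 and 236.5 in AD WT and 231 and 235 in AD CKO. It fell by 0.18 ± 0.04 with the knockout without the AD model (edgeR adjusted p = 0.00166), and the difference in the AD model was -0.05 ± 0.04 (adjusted p = 0.471).

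Hmox1, which opens the haem ring and frees its iron, was at 63.9 and 68.8 CPM in WT, 67.1 and 67.8 in CKO, 54.9 and 52.6 in AD WT and 77.7 and 76.7 in AD CKO. WT and CKO overlapped (0.02 ± 0.06, edgeR adjusted p = 0.823), and in the AD model Hmox1 rose by 0.52 ± 0.06 (adjusted p = 3.1e-07). Gpx4, the selenoenzyme that reduces lipid hydroperoxides in membranes, was at 131 and 144 CPM in WT, 116 and 131 in CKO, 154 and 157 in AD WT and 123 and 132 in AD CKO. WT and CKO overlapped (-0.15 ± 0.06, edgeR adjusted p = 0.0591), and in the AD model Gpx4 fell by 0.28 ± 0.06 (adjusted p = 0.000794). The Gpx4 difference without the AD model passed with DESeq2's size factors in edgeR (adjusted p = 0.0336) and with no filter (0.00779), and without the first WT library (0.0156), the second CKO library (0.00864) or the first AD CKO library (0.0254), so its side of the threshold depends on these choices. The Gpx4 effect was not shown to differ between the backgrounds (interaction -0.13 ± 0.09, edgeR adjusted p = 0.377).

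**Figure D3:**
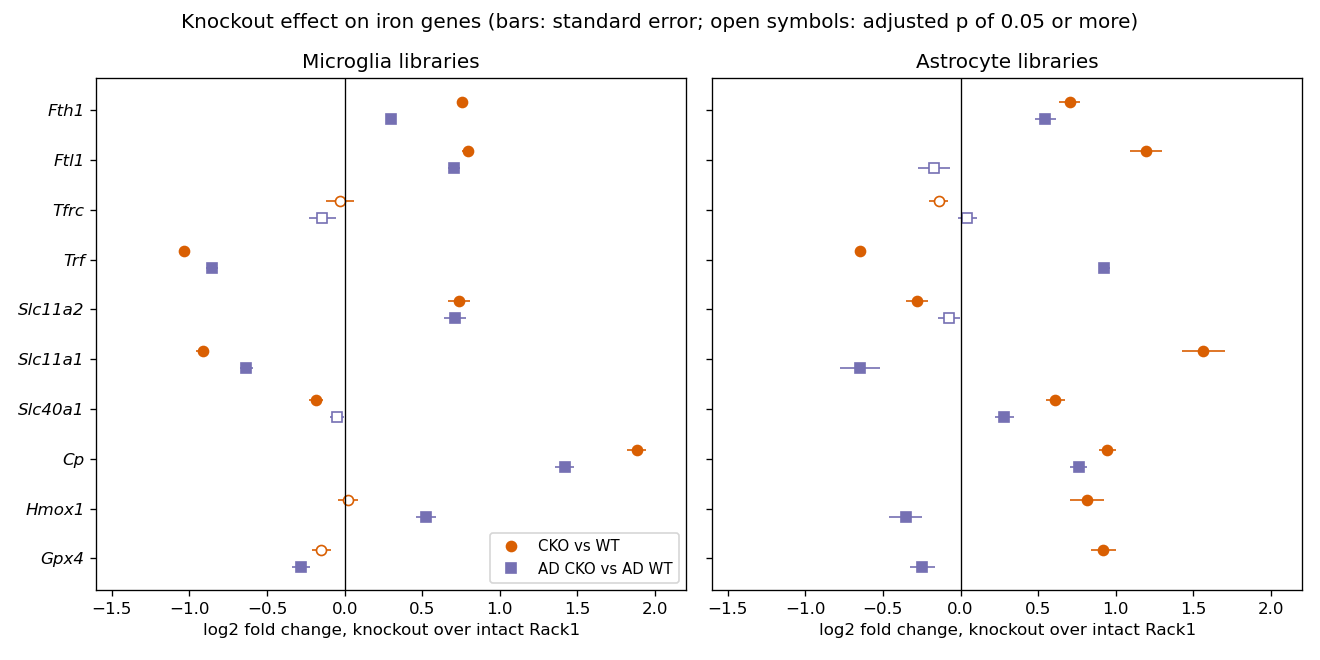
Log2 fold change of the knockout over intact Rack1 for the 10 genes without the AD model (circles) and within it (squares), in microglia (left) and astrocyte (right) libraries. Bars are standard errors and open symbols mark an adjusted p of 0.05 or more. In microglia Fth1, Ftl1, Slc11a2, Cp, Trf and Slc11a1 keep their direction in both backgrounds, while in astrocyte libraries Trf, Slc11a1 and Hmox1 do not. Ftl1 and Gpx4 there change direction before the length offset and not after it, and Tfrc, which did not pass in either background as tested, changes direction with and without it.

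The AD model with intact Rack1 went with 7 rises and 2 falls among the 10 genes in microglia, beside 10.7% and 8.62% of all tested genes (19.3% in either direction, 27.2% of those at 5 CPM or more). The median log2 fold change of the 10 genes was 0.24, beside -0.02 over all genes. Both ferritin chains rose, Fth1 by 0.44 ± 0.03 (edgeR adjusted p = 1.65e-11) and Ftl1 by 0.49 ± 0.04 (adjusted p = 6.95e-11). The transferrin receptor gene Tfrc rose as well, by 0.44 ± 0.09 (edgeR adjusted p = 0.000449). Slc11a1 rose by 0.32 ± 0.04 and Cp by 0.31 ± 0.06, with edgeR adjusted p of 8.97e-07 and 0.000642. The smallest rises were those of Gpx4, by 0.18 ± 0.06 (edgeR adjusted p = 0.0421), and Trf, by 0.14 ± 0.04 (adjusted p = 0.00728). Slc40a1 fell by 0.41 ± 0.04 (edgeR adjusted p = 6.17e-08) and Hmox1 by 0.30 ± 0.07 (adjusted p = 0.000989). Slc11a2 did not pass (0.17 ± 0.07, edgeR adjusted p = 0.0965). The calls of Gpx4 and Trf were lost without single libraries: Gpx4 had an edgeR adjusted p of 0.352 without the first WT library, 0.133 without the first AD WT library and 0.219 without the second, and Trf 0.0997 without the first WT library and 0.125 without the second AD WT library. The 8 endothelial markers (Cldn5, Flt1 and others), none at 0, summed to 427 CPM in both WT libraries and to 746 to 752 in AD WT, and their part in these rises was not tested.

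Within the knockout, the AD model went with 5 rises and 1 fall among the 10 genes, beside 7.73% and 6.92% of all tested genes (14.7% in either direction, 18.1% of those at 5 CPM or more). Ftl1 rose by 0.40 ± 0.04 (edgeR adjusted p = 4.21e-09) and Slc11a1 by 0.60 ± 0.04 (adjusted p = 1.09e-11), while Fth1 did not pass (-0.02 ± 0.03, adjusted p = 0.736). Trf rose by 0.31 ± 0.04, Tfrc by 0.33 ± 0.09 and Hmox1 by 0.20 ± 0.06, with edgeR adjusted p of 2.71e-07, 0.0106 and 0.0379. Slc40a1 fell by 0.27 ± 0.04 (edgeR adjusted p = 6.25e-05). The Tfrc call was lost without the second CKO library (edgeR adjusted p = 0.0752). The Hmox1 call was lost when any of the 4 libraries compared was left out (edgeR adjusted p of 0.0882 to 0.134), and without the first AD WT library (0.0502).

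The knockout effect itself differed between microglia with and without the AD model for 5 of the 10 genes. This was tested as an interaction, the knockout effect in the AD model minus that without it, and 3 of the differences were positive and 2 negative, beside 5.53% and 7.19% of all tested genes (12.7% in either direction, 16.6% of those at 5 CPM or more). The difference was -0.46 ± 0.04 for Fth1 (edgeR adjusted p = 1.37e-08) and -0.47 ± 0.09 for Cp (adjusted p = 0.000305), genes whose rise was smaller in the AD model. It was 0.28 ± 0.06 for Slc11a1 (edgeR adjusted p = 0.00137), whose fall was smaller there, and 0.50 ± 0.09 for Hmox1 (adjusted p = 0.000303), which rose there. For the other ferritin chain, Ftl1, the difference did not pass, at -0.09 ± 0.05 (edgeR adjusted p = 0.291), though it passed without the second WT library (0.0386). Trf gave 0.18 ± 0.05 (edgeR adjusted p = 0.0218), a call lost without the second WT library, the first CKO library, either AD WT library or the first AD CKO library (adjusted p of 0.0684 to 0.136).

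Genes of the iron pathway outside the 10 were counted from a list of 70, of which 63 were tested in microglia. Without the AD model the knockout went with 9 rises and 17 falls among them, and in the AD model with 15 and 11. In both cases 41.3% of them changed, beside 44.7% and 43% of all tested genes at 5 CPM or more (33.6% and 32% of all tested genes). Their median was -0.03 without the AD model, beside 0.04 over all genes. The clearest by p included Nfe2l2, the transcription factor NRF2 that drives ferritin and Hmox1 in other settings. It was at 235 ± 3.27 CPM in WT and 388 ± 12.4 in CKO microglia (0.72 ± 0.04, edgeR adjusted p = 1.06e-13), and at 234 ± 1.85 in AD WT and 397 ± 3.34 in AD CKO (0.76 ± 0.04, adjusted p = 5.53e-14). Lcn2, a siderophore binder that carries iron, rose by 1.14 ± 0.10 with the knockout without the AD model (edgeR adjusted p = 2.04e-10). The 7 neutrophil markers, a cell type known for Lcn2, summed to 219 to 238.5 CPM in WT and 601 to 602 in CKO libraries, and their part in that rise was not tested. Among genes of lipid peroxidation, Lpcat3, which loads polyunsaturated fat into phospholipids, fell by 0.66 ± 0.05 and Gclc, the first enzyme of glutathione synthesis, by 0.61 ± 0.06 (edgeR adjusted p of 1.4e-11 and 1.22e-08). In the AD model the knockout also raised Slc3a2, a subunit of the cystine importer, by 0.44 ± 0.04 and the haem transporter Slc48a1 by 0.50 ± 0.06, and lowered the hypoxia factor Epas1 by 0.96 ± 0.06 (edgeR adjusted p of 2.61e-09, 7.41e-08 and 1.66e-12).

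With the AD model alone, 6 of the 63 pathway genes rose and 11 fell in microglia, and with it in the knockout 8 rose and 2 fell. These are 27% and 15.9% of them, beside 27.2% and 18.1% of all tested genes at 5 CPM or more (19.3% and 14.7% of all tested genes). Hif1a, a hypoxia factor whose breakdown enzymes need iron, rose in both, from 264 ± 7.20 CPM in WT to 525 ± 16.3 in AD WT (0.99 ± 0.05, edgeR adjusted p = 1.52e-15) and from 307.5 ± 7.96 in CKO to 486.5 ± 28.4 in AD CKO (0.66 ± 0.05, adjusted p = 7.95e-12). Epas1 rose by 0.86 ± 0.06 and Lcn2 by 0.69 ± 0.10 in AD WT, and Hfe, a partner of transferrin receptor, fell by 0.34 ± 0.05 (edgeR adjusted p of 3.27e-11, 4.94e-06 and 1.13e-05). Epas1 is also known as an endothelial gene, and the 8 endothelial markers went from 427 CPM in WT up to 746 to 752 in AD WT and were at 516 to 521 in AD CKO, where Epas1 was lower again. The neutrophil markers went from 219 to 238.5 CPM in WT up to 424 to 428 in AD WT, and the part of both cell types was not tested. Within the knockout Lcn2 fell by 1.26 ± 0.10 and the haemoglobin scavenger Cd163 by 0.62 ± 0.11, while Slc3a2 rose by 0.24 ± 0.04 (edgeR adjusted p of 1.27e-10, 0.00019 and 0.000111). From CKO to AD CKO the 7 neutrophil markers went from 601 to 602 CPM down to 263.5 to 282. The 8 border macrophage and monocyte markers, of which Cd163 is one, went from 414 to 417.5 down to 303 to 308 CPM. The part of these cells in the falls was not tested. For Lcn2 and Epas1 the knockout effect differed with the AD model by -1.95 ± 0.14 and -0.99 ± 0.09, and for Slc3a2 and Alad by 0.42 ± 0.06 and 0.82 ± 0.15 (edgeR adjusted p of 4.37e-11, 5.22e-09, 8.49e-06 and 0.000453).

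In the astrocyte libraries of knockout mice without the AD model, 7 of the 10 genes rose and 2 fell, beside 31.6% and 32.4% of all tested genes (64% in either direction, 77% of those at 5 CPM or more). The median log2 fold change of the 10 genes was 0.76, beside 0.01 over all genes. In these libraries fold changes followed transcript length: with genes split into 5 equal classes by the length of their principal transcript, the median log2 fold change was 0.59 in the shortest class (median length 1011 bases) and then 0.14, -0.11, -0.30 and -0.24. In microglia such medians for the knockout lay between -0.06 and 0.06. Gpx4 (959 bases), Ftl1 (968), Fth1 (1494) and Hmox1 (1569) are the shortest of the 10 transcripts, so their astrocyte values are given together with the value after a per-library offset for principal transcript length, which was added after the data had been seen. Marker sums moved as well between these groups: from WT to CKO the 10 astrocyte markers, none at 0, went from 16660 to 17130 CPM down to 7253 to 7479. The 8 ependymal and choroid markers, none at 0, went from 7416 to 7651 up to 12130 to 13170 CPM, the 8 endothelial ones from 1700 to 1708 up to 4379 to 4434 and the 10 microglial ones from 479 to 485.5 up to 1098 to 1124. Their part in the rises of Fth1, Ftl1, Gpx4 and Hmox1 was not tested.

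**Figure D4:**
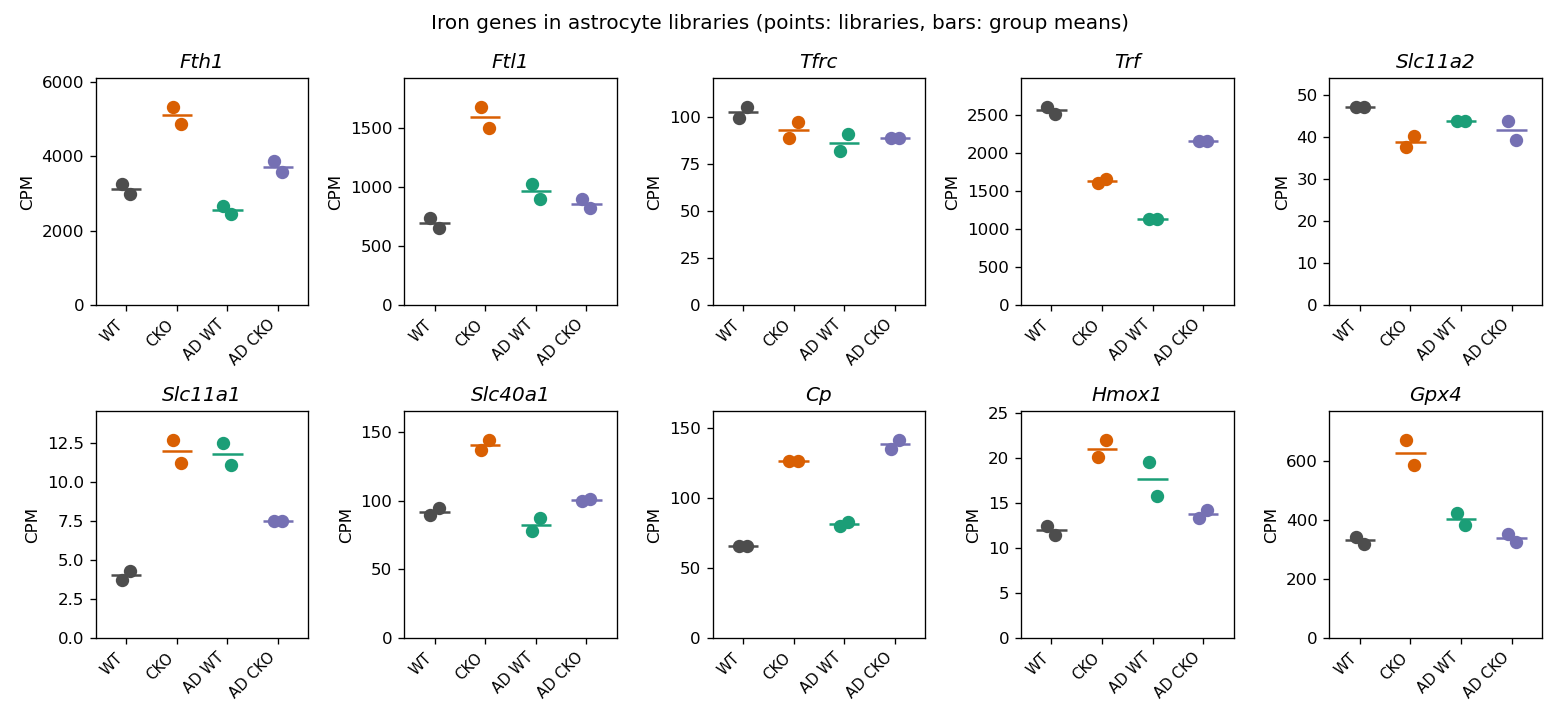
Level of each of the 10 iron genes in the 8 astrocyte libraries, in CPM on a linear axis from 0, with a point for each library and a bar for the mean of the 2 libraries of a group. Fth1, Ftl1, Hmox1, Gpx4 and Slc40a1 are highest in CKO, and Trf is highest in WT and lowest in AD WT.

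Fth1 stood at 3263 and 2996 CPM in WT, 5332 and 4871 in CKO, 2671 and 2441 in AD WT and 3870 and 3585 in AD CKO astrocyte libraries, with no overlap between groups. It rose with the knockout by 0.70 ± 0.07 (edgeR adjusted p = 2.58e-05), or 0.34 with the length offset, and in the AD model by 0.54 ± 0.07 (adjusted p = 0.000212), or 0.74 with it. Ftl1 was at 739 and 649.9 CPM in WT, 1679 and 1502 in CKO, 1029 and 902 in AD WT and 895 and 820 in AD CKO. CKO stood far above the other groups, and the knockout rise was 1.20 ± 0.11 (edgeR adjusted p = 0.000187), or 0.49 with the offset. In the AD model the Ftl1 difference did not pass (-0.17 ± 0.10, edgeR adjusted p = 0.236) and turned to 0.13 with the offset. In all 4 groups the first library had more Fth1, Ftl1 and Gpx4 than the second.

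Gpx4 was at 345 and 321 CPM in WT, 673 and 586 in CKO, 425 and 383 in AD WT and 355 and 325.5 in AD CKO astrocyte libraries. CKO was again the highest group. The rise without the AD model was 0.92 ± 0.08 (edgeR adjusted p = 8.24e-06), or 0.21 with the length offset. In the AD model Gpx4 fell by 0.25 ± 0.08 (edgeR adjusted p = 0.0305), a call lost without the first AD WT library (adjusted p = 0.153) or the second AD CKO library (0.147), and the value turned to 0.05 with the offset. Hmox1, at 12.5 and 11.5 CPM in WT, 20.1 and 22.1 in CKO, 19.5 and 15.8 in AD WT and 13.4 and 14.3 in AD CKO, was low in these libraries. It rose by 0.81 ± 0.11 without the AD model (edgeR adjusted p = 1.03e-06), or 0.49 with the offset, and fell by 0.35 ± 0.11 with it (adjusted p = 0.00881), a call lost with the offset (-0.17, adjusted p = 0.186). That fall did not pass without the first AD WT library (edgeR adjusted p = 0.262) or the first AD CKO library (0.0922).

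**Figure D5:**
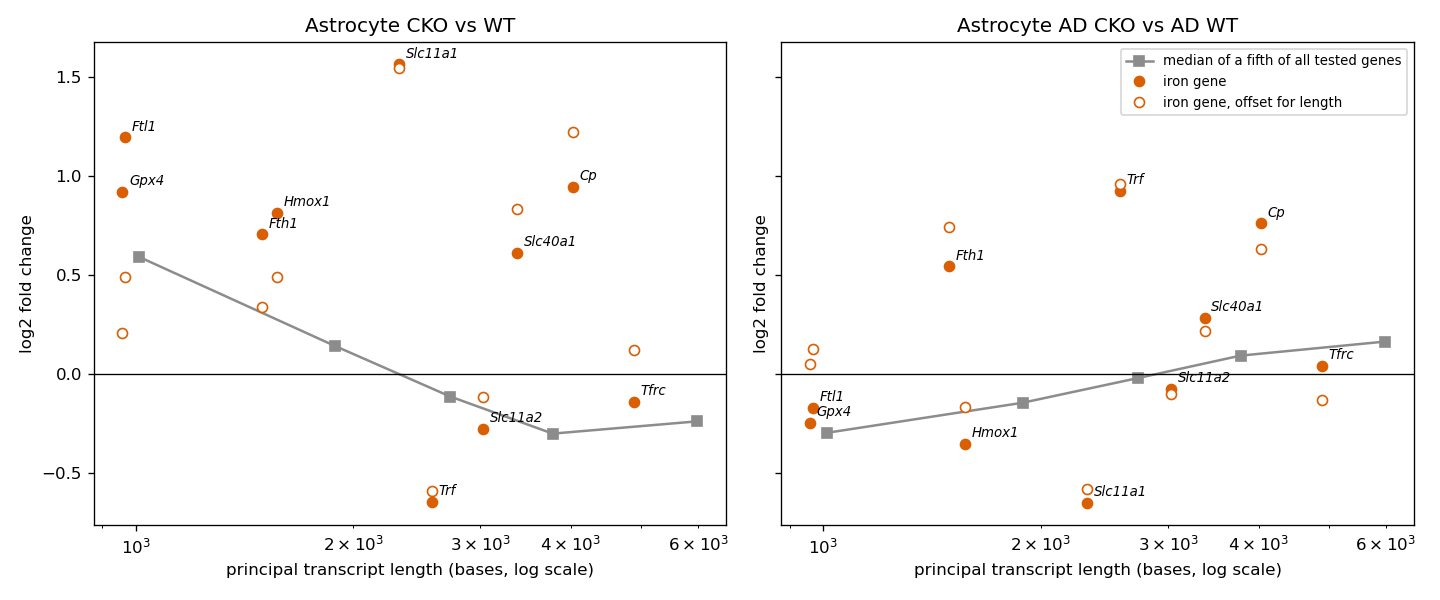
Log2 fold change of the 10 iron genes against principal transcript length (bases, log axis) in astrocyte libraries, for the knockout without the AD model (left) and within it (right). Filled circles are the values as tested, open circles the values with a length offset, and grey squares the medians of 5 equal length classes of all tested genes; on the left Ftl1 and Gpx4 move from 1.20 and 0.92 to 0.49 and 0.21, while Slc11a1 and Trf hardly move.

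Transferrin in astrocyte libraries stood at 2615 and 2521 CPM in WT, 1615 and 1668 in CKO, 1136 and 1142 in AD WT and 2161 and 2170 in AD CKO. The knockout lowered Trf by 0.65 ± 0.04 without the AD model (edgeR adjusted p = 4.31e-13) and raised it by 0.93 ± 0.04 with it (adjusted p = 5.48e-15). The length offset changed these to -0.59 and 0.96. The 10 oligodendrocyte markers, none at 0, summed to 14590 to 14760 CPM in WT, 13400 to 13750 in CKO, 6961 to 7163 in AD WT and 19090 to 19230 in AD CKO. AD WT was lowest in both measures, while WT had more Trf than AD CKO and a smaller marker sum. Over the 8 astrocyte libraries the genes whose log2 levels were most like those of Trf, of 11611 compared, were the oligodendrocyte genes Mag (Pearson r = 0.994) and Enpp6 (0.993) and the magnesium transporter gene Nipal4 (0.993). The part of oligodendrocyte RNA in the Trf values was not tested.

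Slc11a1 was scarce in astrocyte libraries, at 3.76 and 4.30 CPM in WT, 12.7 and 11.2 in CKO, 12.5 and 11.1 in AD WT and 7.50 and 7.51 in AD CKO. It rose by 1.56 ± 0.14 with the knockout alone (edgeR adjusted p = 1.55e-09) and fell by 0.65 ± 0.13 with the knockout in the AD model (adjusted p = 0.000184). The 10 microglial markers, none at 0, summed in the same libraries to 479 to 485.5 CPM in WT, 1098 to 1124 in CKO, 895 to 927 in AD WT and 876 to 888 in AD CKO. Of these markers 9 rose and 1 fell from WT to CKO, and likewise from WT to AD WT. From AD WT to AD CKO, where Slc11a1 fell, 6 rose and 2 fell (median log2 fold change 0.28). Among the 3 genes with the pattern most like that of Slc11a1 was Tyrobp (r = 0.986 over 8 libraries), a signalling adaptor of microglia, beside Hmgb2 (0.994) and Ociad2 (0.986). The part of microglial RNA in these values was not tested.

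Cp and Slc40a1 rose in astrocyte libraries with the knockout in both backgrounds. Cp was at 65.6 and 66.0 CPM in WT, 126 and 127 in CKO, 80.2 and 83.3 in AD WT and 135 and 142 in AD CKO, so both knockout groups lay above both intact ones. Its rises were 0.95 ± 0.05 (edgeR adjusted p = 5.88e-13) and 0.76 ± 0.05 (adjusted p = 6.74e-11), or 1.22 and 0.63 with the length offset. The 8 endothelial markers, none at 0, summed to 1700 to 1708 CPM in WT, 4379 to 4434 in CKO, 2039 CPM in both AD WT libraries and 2375 to 2393 in AD CKO. The pattern most like that of Cp was that of Vwf (r = 0.998 over 8 libraries), an endothelial gene, and the part of endothelial RNA was not tested. Slc40a1 was at 89.4 and 94.3 CPM in WT, 137 and 144 in CKO, 77.8 and 87.2 in AD WT and 99.8 and 101 in AD CKO. It rose by 0.61 ± 0.06 (edgeR adjusted p = 4.85e-09) and by 0.28 ± 0.06 (adjusted p = 0.000344), or 0.83 and 0.22 with the offset.

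The remaining import genes were Tfrc and Slc11a2. Tfrc lay between 81.5 and 105 CPM in all 8 libraries, and the knockout differences were -0.14 ± 0.06 (edgeR adjusted p = 0.0528) without and 0.04 ± 0.06 (adjusted p = 0.592) with the AD model, with signs that turned under the length offset (0.12 and -0.13). The first of these passed without the first WT library (edgeR adjusted p = 0.0491), the second CKO library (0.0181), the first AD WT library (0.0328) or the second AD WT library (0.0321). Slc11a2 lay between 37.6 and 47.1 CPM. It fell by 0.28 ± 0.07 with the knockout alone (edgeR adjusted p = 0.00172), a call that the length offset ended (-0.11, adjusted p = 0.14), and did not pass in the AD model (-0.07 ± 0.07, adjusted p = 0.393). Of the 10 genes, 4 rose and 3 fell with the knockout in the AD model, beside 25.1% and 27% of all tested genes (52.1% in either direction, 65.8% of those at 5 CPM or more). The median of the 10 genes there was -0.02, beside -0.03 over all genes.

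The AD model alone went with 5 rises and 4 falls of the 10 genes in astrocyte libraries, beside 20% and 18% of all tested genes (38% in either direction, 47.6% of those at 5 CPM or more). The median of the 10 was 0.09 and that of all genes 0.03. Trf fell by 1.17 ± 0.04 (edgeR adjusted p = 1.43e-16), and Fth1 fell by 0.29 ± 0.07 (adjusted p = 0.0106), or by 0.45 with the length offset. Slc11a1 rose by 1.54 ± 0.14, Cp by 0.31 ± 0.05 and Hmox1 by 0.56 ± 0.11 (edgeR adjusted p of 1.51e-08, 9.96e-05 and 0.000413), the last by 0.42 with the offset. Ftl1 rose by 0.48 ± 0.10 (edgeR adjusted p = 0.0186), or 0.22 with the offset. Gpx4 rose by 0.28 ± 0.08, while Tfrc fell by 0.25 ± 0.06 and Slc40a1 by 0.16 ± 0.06 (edgeR adjusted p of 0.0252, 0.00341 and 0.0432). None of these last 3 calls held with the length offset (values of 0.02, -0.12 and -0.09). They were also lost without the second WT library (edgeR adjusted p of 0.131, 0.0543 and 0.238) or the first AD WT library (0.115, 0.0705 and 0.399).

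Within the knockout, the AD model went with 2 rises and 6 falls of the 10 genes in astrocyte libraries, beside 31.4% and 28.4% of all tested genes (59.8% in either direction, 74% of those at 5 CPM or more). The medians were -0.47 for the 10 and -0.01 for all. Trf rose by 0.40 ± 0.04 (edgeR adjusted p = 2.64e-09), and Cp rose by 0.13 ± 0.05 (adjusted p = 0.0368), a value that turned to -0.17 with the length offset. The Cp call was lost without either CKO library (edgeR adjusted p of 0.105 and 0.0823) or the second AD CKO library (0.246). Slc11a1 fell by 0.67 ± 0.13 and Slc40a1 by 0.48 ± 0.06 (edgeR adjusted p of 1e-04 and 2.3e-07). Of the 4 short transcripts, Ftl1 fell by 0.89 ± 0.11, Gpx4 by 0.89 ± 0.08, Hmox1 by 0.60 ± 0.11 and Fth1 by 0.45 ± 0.07 (edgeR adjusted p of 0.000789, 1.28e-05, 4.3e-05 and 0.000505). With the offset these became -0.15, -0.14, -0.23 and -0.04, and the calls of Hmox1 (edgeR adjusted p = 0.0523) and Fth1 (0.285) were lost. With the longest transcript in place of the principal one those of Ftl1 (edgeR adjusted p = 0.136), Gpx4 (0.0684) and Hmox1 (0.217) were lost, while that of Fth1 was kept (0.000336). The medians of the length classes went from -0.59 in the shortest to 0.34 and 0.27 in the longest.

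The interaction in astrocyte libraries passed for 7 of the 10 genes, 1 positive and 6 negative, beside 29.5% and 28.3% of all tested genes (57.8% in either direction, 72.3% of those at 5 CPM or more). Trf gave 1.57 ± 0.05 (edgeR adjusted p = 1.89e-16), the only positive one, and Slc11a1 -2.21 ± 0.19 (adjusted p = 1.34e-09). Ftl1 gave -1.37 ± 0.15, Hmox1 -1.17 ± 0.15 and Gpx4 -1.17 ± 0.11 (edgeR adjusted p of 0.00057, 1e-06 and 2.23e-05), or -0.37, -0.66 and -0.16 with the length offset. Slc40a1 gave -0.33 ± 0.08 and Cp -0.18 ± 0.07 (edgeR adjusted p of 0.0018 and 0.0393), or -0.62 and -0.59 with the offset. The Cp call did not hold when any of the 8 libraries was left out (edgeR adjusted p of 0.0519 to 0.238). Fth1 did not pass as tested (-0.16 ± 0.10, edgeR adjusted p = 0.19), passed without the second CKO library (0.0477) and turned to 0.40 with the offset.

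Of the 70 other pathway genes, 67 were tested in astrocyte libraries. The knockout went with 27 rises and 27 falls among them without the AD model and with 17 and 27 in it, and the AD model with 15 and 16 at intact Rack1 and with 24 and 30 in the knockout. In that order 80.6%, 65.7%, 46.3% and 80.6% of them changed, beside 77%, 65.8%, 47.6% and 74% of all tested genes at 5 CPM or more (64%, 52.1%, 38% and 59.8% of all tested genes). Lcn2 had the largest change among those named, from 3.35 ± 0.554 CPM in WT to 59.0 ± 4.46 in CKO (4.13 ± 0.12, edgeR adjusted p = 3.49e-18) and 9.48 ± 0.406 in AD CKO. The 7 neutrophil markers summed in those groups to 49.8 to 52.4, 125 to 136 and 26.7 to 27.8 CPM. The 8 endothelial markers summed there to 1700 to 1708, 4379 to 4434 and 2375 to 2393 CPM. In AD CKO both Lcn2 and the endothelial sum were above WT, and the neutrophil sum was below it. The part of either cell type in the Lcn2 values was not tested. Abcg2, a haem and drug exporter of brain endothelium, rose with the knockout alone by 1.56 ± 0.06 (edgeR adjusted p = 2.91e-16), in the group with the highest endothelial marker sum. The cystine importer Slc7a11 fell by 1.06 ± 0.05 and the hemojuvelin receptor gene Neo1 by 1.09 ± 0.06 (edgeR adjusted p of 1.06e-13 and 6.47e-13). The 10 astrocyte markers went from 16660 to 17130 CPM in WT down to 7253 to 7479 in CKO, and their part in these falls was not tested. In the AD model the knockout lowered Lpcat3 by 0.68 ± 0.05, the iron-sulphur assembly gene Isca2 by 0.70 ± 0.05, Slc3a2 by 0.53 ± 0.05 and Slc48a1 by 0.43 ± 0.04, with edgeR adjusted p of 6.53e-11, 1.34e-10, 2.33e-09 and 1.86e-08. The AD model alone raised the metalloreductase Steap1 by 0.84 ± 0.09 and lowered Neo1 by 0.51 ± 0.06 and the haem synthesis genes Cpox by 0.54 ± 0.06 and Alad by 0.50 ± 0.07 (edgeR adjusted p of 1.39e-07, 7.22e-07, 1.63e-07 and 1.13e-05). Within the knockout it lowered Lcn2 by 2.64 ± 0.10, Abcg2 by 1.15 ± 0.05, the ferritin iron chaperone Pcbp2 by 1.10 ± 0.06 and Alad by 1.27 ± 0.07 (edgeR adjusted p of 1.61e-15, 1.23e-13, 2.21e-12 and 2.28e-12). All values of these pathway genes are without the length offset. The class of shortest transcripts had a median log2 fold change of -0.30 for the knockout in the AD model. For the AD model within the knockout it was -0.59. The part of the length trend in the pathway gene values was not tested.

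Between the cell types, the 4 WT libraries were fitted together on 55405 shared genes, and all 10 iron genes differed, 6 higher and 4 lower in microglia, beside 41.3% and 42.9% of 18456 tested genes (84.2% in either direction). Their median log2 difference was 0.16, beside -0.03 over all genes. How the cells of each type were isolated is not given in the sources used here, so cell type and any difference in isolation cannot be told apart. Slc11a1, at 433 and 447 CPM in microglia and 3.27 and 3.78 in astrocyte libraries, was 124.5-fold higher in microglia (log2 6.96 ± 0.08, edgeR adjusted p = 2.03e-32). Hmox1 was 6.98-fold, Slc40a1 4.38-fold and Ftl1 3.18-fold higher in microglia (edgeR adjusted p of 9.23e-22, 1.95e-23 and 3.33e-18). With the length offset the differences of Hmox1, Slc40a1 and Ftl1 were 3.17, 2.06 and 2.13 on the log2 scale. Tfrc was higher in astrocyte libraries, with 86.1 and 92.4 CPM against 29.4 and 30.0 in microglia (microglia minus astrocyte log2 difference of -1.59 ± 0.08, edgeR adjusted p = 1.06e-17). Gpx4 was 1.92-fold higher in astrocyte libraries (log2 -0.94, edgeR adjusted p = 7.88e-15), or -0.48 with the length offset. Cp was 1.27-fold higher in astrocyte libraries (edgeR adjusted p = 0.00013). Fth1 was lower in microglia by 0.21 ± 0.05 (edgeR adjusted p = 0.000353), and this turned to 0.18 with the length offset. Trf and Slc11a2 were higher in microglia by 0.13 ± 0.05 and 0.20 ± 0.08 (edgeR adjusted p of 0.0155 and 0.0238), calls lost without the first astrocyte library (0.0555 and 0.146) or the second (0.131 and 0.105), and for Slc11a2 also without the first microglia library (0.0684).

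Per kilobase, the order of levels in WT microglia was Ftl1 (1812 CPM per kilobase), Fth1 (1438), Trf (868), Slc11a1 (173), Gpx4 (143), Slc40a1 (94.8), Hmox1 (42.3), Slc11a2 (14.2), Cp (10.2) and Tfrc (5.52). In WT astrocyte libraries it was Fth1 (2095), Trf (999), Ftl1 (717), Gpx4 (347), Slc40a1 (27.3), Tfrc (20.9), Cp (16.3), Slc11a2 (15.6), Hmox1 (7.64) and Slc11a1 (1.74). Cp moved from next to last in WT microglia to above Slc11a2 in CKO microglia (37.7 against 23.6 CPM per kilobase). These orders rest on 1 principal transcript length a gene.

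Some genes had patterns nearly identical to single iron genes over the 8 microglia libraries, chosen as the highest Pearson correlations of log2 CPM among 10222 genes with a mean of at least 5 CPM. These are descriptions of 8 libraries in 4 groups, and many genes share the same group means. Fth1 was most like B2m (0.997), Irf7 (0.995) and H2-M3 (0.994). Ftl1 was instead most like Mapkapk2 (0.995), Lilrb4a (0.994) and Pwwp2b (0.992). Cp was most like Ifnar1 (0.998), Ms4a7 (0.997) and Tap1 (0.997), and Slc11a1 most like Pmp22 (0.998), Mfsd1 (0.995) and Fcrls (0.995). Trf was most like Eef1d (0.997), Sirpa (0.996) and Egr1 (0.996). Slc11a2 was most like Myo7a (0.996), and its log2 level had a correlation of 0.965 with that of Cp. In astrocyte libraries Ftl1 was most like Txn1 (0.998), Gpx1 (0.997) and Id1 (0.996). These correlations were taken without the length offset.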

How the data were processed

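Total RNA was made into SMART-Seq v4 libraries and sequenced as paired reads, per the labels' protocols. fastp, HISAT2 and StringTie and the build mm10 are named per the submitters' processing notes; versions, annotation release and counting step are not given in the sources used here. The deposited values are estimated counts per gene (27% to 33.6% of non-zero values are not whole) and were rounded. The library kit does not mark strand, so overlapping genes cannot be told apart. Testing used edgeR 4.0.16 in R 4.3.3 (TMM, low-count filter, robust quasi-likelihood test, two-sided) on the 8 libraries of a cell type, which share 1 estimate of the spread, and on 4 WT libraries between types. Alternatives were DESeq2 1.42.0 and its size factors, limma-voom 3.58.1, a filter of 1 CPM in 2 libraries, no filter, the compared groups alone, a replicate block, ferritin and Gpx4 pseudogene rows added, and leaving out each library; a length offset was added later. The procedure was tested on simulated data. Genes named outside the 10 were up to 4 per comparison with the smallest p (adjusted p under 0.05, mean of at least 5 CPM), and the 3 most correlated genes per iron gene and cell type, of which the text gives a selection; the genes most correlated with Gpx4 in astrocyte libraries are not reported here. Members, gene lists and marker lists were chosen with earlier results of these data known.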

Additional observations from a re-analysis of the deposited data

Results flagged for a closer look

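The knockout effect differed between libraries with and without the AD model by an interaction term for 12 combinations of gene and cell type (edgeR, adjusted p under 0.05). These were 5 of the 10 genes in microglia and 7 in astrocyte libraries, beside 12.7% and 57.8% of all tested genes. Of the tested genes at 5 CPM or more, 16.6% and 72.3% passed. In microglia the difference on the log2 scale was -0.46 for Fth1, 0.18 for Trf, 0.28 for Slc11a1, -0.47 for Cp and 0.50 for Hmox1. In astrocyte libraries it was -1.37 for Ftl1, 1.57 for Trf, -2.21 for Slc11a1, -0.33 for Slc40a1, -0.18 for Cp, -1.17 for Hmox1 and -1.17 for Gpx4. With the length offset the astrocyte values of Ftl1, Hmox1 and Gpx4 became -0.37, -0.66 and -0.16. The calls of Trf in microglia and of Cp in astrocyte libraries were lost under some of the other settings.

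Further combinations were flagged where astrocyte and microglia libraries moved opposite ways under a contrast and the compared groups overlapped in neither cell type. How many of all genes meet this rule was not counted, so the list is not a result about the iron genes as a set. These differences between cell types were not tested. For the knockout alone the astrocyte and microglia log2 fold changes were -0.28 and 0.74 for Slc11a2, 1.56 and -0.91 for Slc11a1, and 0.61 and -0.18 for Slc40a1. For the AD model alone they were -0.29 and 0.44 for Fth1, -0.25 and 0.44 for Tfrc, -1.17 and 0.14 for Trf, -0.11 and 0.17 for Slc11a2, and 0.56 and -0.30 for Hmox1. For the knockout within the AD model they were -0.17 and 0.70 for Ftl1, 0.93 and -0.85 for Trf, 0.28 and -0.05 for Slc40a1, and -0.35 and 0.52 for Hmox1. For the AD model within the knockout they were -0.89 and 0.40 for Ftl1, -0.67 and 0.60 for Slc11a1, 0.13 and -0.16 for Cp, and -0.60 and 0.20 for Hmox1. With the length offset 2 of these astrocyte values turned, Ftl1 for the knockout within the AD model to 0.13 and Cp for the AD model within the knockout to -0.17, so that they no longer opposed the microglia values. The offset also ended the astrocyte calls of Slc11a2 for the knockout (-0.11), Tfrc for the AD model (-0.12) and Hmox1 for the knockout within the AD model (-0.17). For the AD model within the knockout it ended the call of Hmox1 (-0.23), and Ftl1 became -0.15. Slc11a2 for the AD model passed the test in neither cell type, and for the knockout within the AD model Ftl1 did not pass in astrocyte libraries nor Slc40a1 in microglia. For the AD model within the knockout, Cp did not pass in microglia (edgeR adjusted p = 0.0623).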

How the results depend on the processing

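Of 85 calls on the iron genes, 71 kept their direction and their side of the threshold under every setting other than the length offset and 14 were lost at least once, with none reversed. Each count of changed genes stayed within 1.5 times its value under every setting, the microglia count for the knockout alone between 7 and 8 and the astrocyte count between 8 and 10. Other counts moved more. In astrocyte libraries that for the AD model went from 9 to 6 with the length offset. That for the interaction went from 7 to 6 with DESeq2's size factors and to 10 with the replicate block. Leaving out single libraries also lowered the microglia count for the AD model within the knockout and the astrocyte count for the knockout in the AD model. Close calls that another tool or filter ended were, in microglia, Gpx4 for the AD model (DESeq2 adjusted p = 0.0517, limma-voom 0.0503) and Hmox1 for the AD model within the knockout (filter of 1 CPM 0.0579, compared groups alone 0.0526). In astrocyte libraries they were Slc40a1 for the AD model (DESeq2 0.0534, limma-voom 0.0593), Cp for the AD model within the knockout (DESeq2 0.0516, filter of 1 CPM 0.0764) and Cp for the interaction (DESeq2 0.112, its size factors 0.0709, no filter 0.11, pseudogenes added 0.0524). Between WT cell types they were Slc11a2 (DESeq2 0.0718, no filter 0.0649) and Trf (no filter 0.0691). With no filter, 2 uncalled microglia values changed sign: Hmox1 for the knockout (-0.0095) and Fth1 for the AD model within the knockout (0.0098). Leaving out 1 library each turned 7 uncalled values, with ranges in microglia of -0.035 to 0.0116 (Fth1) and -0.0159 to 0.1333 (Gpx4) for the AD model within the knockout, -0.0301 to 0.0794 (Hmox1) for the knockout and -0.1198 to 0.0846 (Slc11a2) for the interaction. In astrocyte libraries the ranges were -0.1378 to 0.0129 (Slc11a2) and -0.0243 to 0.1365 (Tfrc) for the knockout in the AD model and -0.1226 to 0.0052 (Tfrc) for the AD model within the knockout. A lone library left in a group was assumed to vary like the other groups. The offset for length of the principal transcript reversed, in astrocyte libraries, Tfrc (0.12) for the knockout, Ftl1 (0.13), Tfrc (-0.13) and Gpx4 (0.0511) for the knockout in the AD model, Slc11a2 (-0.0586) and Cp (-0.17) for the AD model within the knockout, and Fth1 (0.40) and Tfrc (-0.25) for the interaction, and between WT cell types Fth1 (0.18). The longest transcript in its place gave Tfrc (0.11), Ftl1 (0.15), Tfrc (-0.11), Gpx4 (0.066), Slc11a2 (-0.18), Cp (-0.15), Fth1 (0.18), Tfrc (-0.21) and Fth1 (0.0798) for those, and also reversed Gpx4 (-0.0098) for the AD model and Slc11a2 (-0.17) for the interaction. Calls lost in the same direction with both offsets were Gpx4 for the AD model in microglia and, in astrocyte libraries, Slc11a2 for the knockout, Tfrc and Slc40a1 for the AD model, and Hmox1 for the knockout in the AD model and for the AD model within the knockout. Fth1 for the AD model within the knockout was lost with the principal transcript only, and Ftl1 and Gpx4 for that contrast, Gpx4 for the interaction and Slc11a2 between WT cell types with the longest only. The offset's own construction removes differences that follow length, and the cause of the length trend was not tested.

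The labels number the libraries without saying that a number pairs them, and no pairing was used in the main fits. Deviations of same-numbered libraries correlated at 0.012 to 0.037. Such low values do not show that single genes lack a shift shared by number. In all 4 astrocyte groups the first library had more Fth1, Ftl1 and Gpx4 than the second. With the replicate number as a block no call was lost and 7 were added: in microglia Gpx4 (-0.15) for the knockout and Cp (-0.16) for the AD model within it, in astrocyte libraries Tfrc (-0.14) for the knockout, Ftl1 (-0.17) for the knockout in the AD model, and Fth1 (-0.16), Tfrc (0.18) and Slc11a2 (0.20) for the interaction. Among these, the edgeR adjusted p of Ftl1 for the knockout in the AD model went from 0.236 without the block to 3.47e-07 with it. For Fth1 in the astrocyte interaction it went from 0.19 to 1.08e-05. The p-values of such genes therefore depend on whether the libraries are treated as paired, and the source of the shift was not tested. With 2 libraries a group, small differences may be missed. Counting error weighs most on Slc11a1 and Hmox1 in astrocyte libraries, the scarcest of the 10 genes there.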
